A study of Mus musculus with 4 samples.

Results

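Genes that carry signals from the phosphatase SHP-2 to the kinase ERK, 7 in all, were looked up by their Ensembl gene identifiers in a list of m6A (N6-methyladenosine) peaks of mouse natural killer (NK) cells. They were Grb2, Gab2, Sos1, Hras, Nras, Map2k1 and Mapk3. Of these, 5 had a peak and 2, Gab2 and Sos1, had none. Together they held 11 of the 20727 distinct peaks in the list. Peaks were obtained from 4 libraries in 2 groups, with 2 immunoprecipitates made with an m6A-specific antibody and 2 input RNA libraries. All 4 came from splenic NK cells of C57BL/6 mice, sorted by flow cytometry 1 to 2 months after the animals were injected with the plasmid pLIVE-IL-15, which makes IL-15 in the host and enlarges the NK cell pool. Both groups share this treatment, and cells without it were not analysed here. The study used mice of 6 to 10 weeks, but the age at collection, the genotype and the number of the animals behind each library, and whether animals were pooled, are not given in the sources used here.

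The list gave 1 fold enrichment and 1 peak-calling p-value for each peak over all 4 libraries. The fold enrichment is the ratio of immunoprecipitate to input reads, and the significance was read as the log10 of an unadjusted p-value, from its column name and values, since no source used here states it. Its weakest listed value was -1.3. No value per library was listed, so the depth of the libraries is unknown, no error between replicates could be computed and no difference between peaks was tested. Of NK cell marker genes 9 of 9 had a peak, among them Ncr1, Klrb1c and Eomes, against 46.3% of all protein-coding genes. Peaks were also listed for 2 of 4 T cell, 1 of 3 B cell, 4 of 4 myeloid and 2 of 2 erythroid marker genes. These counts do not separate NK cells from other cells, since a peak shows that RNA of a gene was read but not how much of it, and the part of other cells in the results was not tested.

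RAS proteins are small GTPases that switch on when they bind GTP and off when they cleave it. In IL-15 signalling the adaptor GRB2, together with the docking protein GAB2 and SHP-2, brings the exchange factor SOS1 to the membrane, where it loads RAS with GTP. RAS then activates RAF kinases, which phosphorylate MEK, and MEK phosphorylates ERK. The m6A mark is placed on messenger RNA by a METTL3 complex, mostly within the consensus DRACH (R stands for A or G, D for any base but C, H for any base but G), and is known to be dense around stop codons and in long last exons. Reader proteins that bind it can alter the decay and translation of the RNA.

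To show which sequences the peaks hold, the DRACH site nearest the centre of each peak is given here in capitals with up to 12 nt on either side, read 5′ to 3′ on the strand of the gene from GENCODE M21 transcripts. Peaks of a gene are numbered from the 5′ end of the transcript, and coordinates are those of GRCm38. The first Grb2 site begins at nt 3 of the transcript, so its window is shorter.
Grb2 peak 1, chr11:115708579-115708597, minus strand: cgGGACCctggcgaggagc
Grb2 peak 2, chr11:115645571-115645599, minus strand: ttcataatgccaAAACTtaacctattgaa
Grb2 peak 3, chr11:115644173-115644201, minus strand: tgaagccttgctGAACTaagttttgtgtg
Hras peak 1, chr7:141190912-141190940, minus strand: atttgatggtctTGACTtgtctctggctg
Nras peak 1, chr3:103064859-103064887, plus strand: tgtataggaaagTGACTctgagccatcta
Nras peak 2, chr3:103067076-103067104, plus strand: ctggatctgtgtAAACCtggtaaatgccg
Map2k1 peak 1, chr9:64253465-64253493, minus strand: tccgagcccgagGAACCggtgtgctgagg
Map2k1 peak 2, chr9:64214490-64214518, minus strand: cagaaggtggggGAACTgaaggatgatga
Map2k1 peak 3, chr9:64185883-64185911, minus strand: caatgctattgtAAACAacgtgtatagtg
Mapk3 peak 1, chr7:126759683-126759711, plus strand: gggagcccagggGAACTgctggggtcgtc
Mapk3 peak 2, chr7:126765482-126765510, plus strand: cccggctctggtAGACCgttctggaatgg

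A DRACH site that begins with GGAC is the form most often linked to the mark, and 5 of the 11 peaks held one on the strand of the gene. Of the peaks of protein-coding genes placed on the longest coding transcript, 51.2% held one. In the first Grb2 peak the GGAC site was the one already shown. For the other 4 peaks the GGAC site nearest the centre is given in the same way, chosen after the sites had been counted.
Grb2 peak 3, chr11:115644339-115644367, minus strand: gcattgtgagatGGACTcagctcagggcg
Hras peak 1, chr7:141191044-141191072, minus strand: agaccttcgcatGGACAatttgaacagac
Nras peak 2, chr3:103067101-103067129, plus strand: gccgtttgtccaGGACTtagcgtgtgtga
Mapk3 peak 2, chr7:126765518-126765546, plus strand: atgatcgtcctaGGACCtgtgctacggag

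Among the 7 genes, peaks reached from the adaptor Grb2 to the kinase Mapk3, and 7 of the 11 had their centre in a 3′ UTR. A peak was present in 5 of the 7, and in 46.3% of all annotated protein-coding genes. Peaks numbered 3 in Grb2 and in Map2k1, 2 in Nras and in Mapk3 and 1 in Hras. Of protein-coding genes with a peak, 46.7% had at least 2 and 19.7% at least 3. The fold enrichment ran from 1.31 in Map2k1 to 53.1 in Mapk3 with a median of 2.4, beside a median of 2.37 over the 18250 peaks of protein-coding genes.

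Peaks were called strong from a fold enrichment of 5 upward, a limit that the study also applied when it took modified genes into a pathway enrichment. Grb2, Hras, Nras and Mapk3 each had 1 strong peak and Map2k1 had none. Of the 11 peaks 4 were strong, against 29.5% of the peaks of protein-coding genes. By gene, a strong peak was found in 4 of the 5 that had any peak, against 43.4% of protein-coding genes with a peak. This share also depends on the number of peaks per gene. The 5 genes held 11 peaks, and the median over protein-coding genes with a peak was 1. The lowest of the strong values was 5.22 and the highest value below the limit was 2.64. A fold enrichment of at least 2 was found in 8 peaks, against 60.3% in protein-coding genes, and a peak-calling p-value under 0.001 in 9 peaks, against 62.3%. The median log10 p was -11.7, beside -4.16 in protein-coding genes. None of the 11 peaks shared a base with an exon of another gene, and 0 peaks named for other genes overlapped an exon of the 7.

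**Figure D1:**
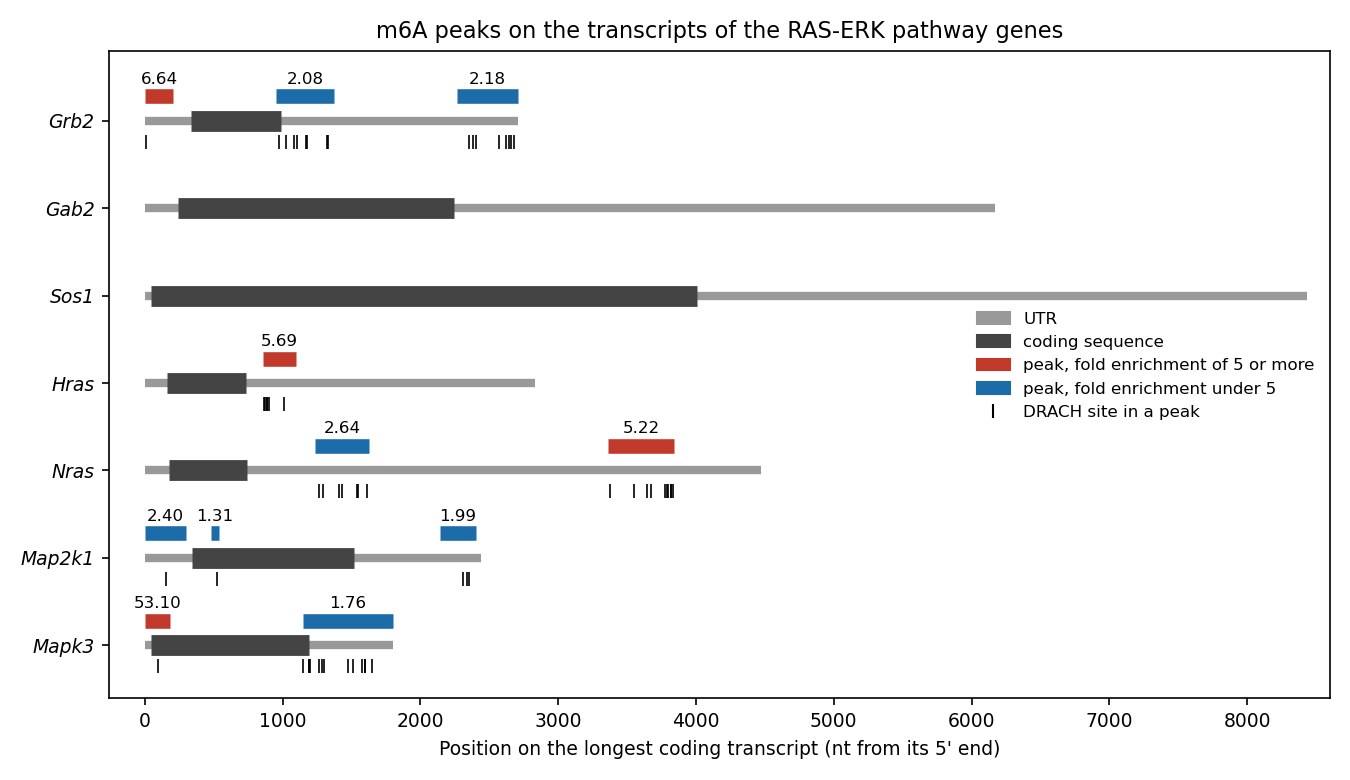
Each line is the longest coding transcript of a gene, drawn to scale in nt from its 5′ end, with the coding sequence thick, peaks above it with their fold enrichment and DRACH sites inside peaks as ticks below. Centres of 7 of the 11 peaks lie past the coding sequence, 3 begin at the first base of a transcript, and Gab2 and Sos1 carry none.

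The adaptor Grb2 (ENSMUSG00000059923, chromosome 11, 115644045 to 115708597, minus strand), which links receptors to SOS1 through its SH2 and SH3 domains, had peaks at both ends of its transcript. The longest coding transcript has 2709 nt in 6 exons. The first peak spanned 115699440 to 115708597, a genomic stretch of 9158 nt that is mostly intron. It held 328 nt of exons of the gene, of which 204 nt made up the whole of exon 1, all 5′ UTR. The peak touched 4 of the 5 annotated coding isoforms, and 1 of them held these 204 nt whole. The fold enrichment was 6.64 and the log10 p -3.75. In 62.4% of peaks centred in a 5′ UTR the fold enrichment was lower. The second peak (115645384 to 115645800, 417 nt) began in the coding sequence, covered the stop codon and had its centre 177 nt past it. The values listed for it were 2.08 for the fold and -78.8 for the log10 p, so that 97.0% of peaks centred in a 3′ UTR were less significant. The third peak (115644045 to 115644491, 447 nt) lay in the same last exon, 892 nt further on, and ran to the last base of the transcript. It was enriched 2.18 times (log10 p -14.8). The 2 peaks in the last exon thus had nearly the same fold enrichment, and the peak at the 5′ end had 3.05 times that of the third but the weakest p-value of the 3.

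Gab2 (ENSMUSG00000004508, chromosome 7, 97081586 to 97308946, plus strand), the docking protein that binds GRB2 and SHP-2, had 0 peaks. Sos1 (ENSMUSG00000024241, chromosome 17, 80393751 to 80480453, minus strand), the exchange factor that loads RAS with GTP, also had 0 peaks. These were the longest transcripts of the 7, with 6168 and 8436 nt. Among protein-coding genes whose longest coding transcript was of like length to that of Gab2 (at most 25% above the shorter of both), 58.3% had a peak, and for Sos1 the share was 63.7%. Their transcripts held 139 and 159 DRACH sites, or 22.5 and 18.8 per kb. Their last exons of 4071 and 4922 nt were also the longest of the group. Since the list gives neither reads nor the level of any RNA, absence of a peak does not separate unmarked RNA from RNA that was read too little.

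Hras and Nras each carried a strong peak in the 3′ UTR. Hras (ENSMUSG00000025499, chromosome 7, 141189105 to 141194005, minus strand), a GTPase of the membrane, had a peak at 141190837 to 141191075 (239 nt). It lay in the last exon, of 2090 nt, and its centre was 245 nt past the stop codon. Enrichment was 5.69 times, with a log10 p of -18.2. The fold enrichment was lower in 82.5% of peaks centred in a 3′ UTR. At 25.1 DRACH sites per kb this was the densest of the 11 peaks. The peak touched all 4 coding isoforms and lay whole in 2 of them.

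Nras (ENSMUSG00000027852, chromosome 3, 103058285 to 103067914, plus strand), the close relative of Hras, had 2 peaks in its long last exon of 3681 nt. The first (103064680 to 103065069, 390 nt) was centred 687 nt past the stop codon and enriched 2.64 times (log10 p -10.1). The second (103066806 to 103067285, 480 nt) was centred 2858 nt past it and enriched 5.22 times. With a log10 p of -79.4 it was the most significant of the 11. The distal peak thus had 1.98 times the fold enrichment of the proximal one, and 1736 nt without a peak lay between them. Among peaks centred in a 3′ UTR the median distance from the stop codon was 716 nt, and 18.5% lay over 2000 nt past it. Of the 5 annotated coding isoforms of Nras, 1 holds the bases of these peaks, the longest.

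Map2k1 (ENSMUSG00000004936, chromosome 9, 64185770 to 64253631, minus strand), which encodes the ERK kinase MEK1, had 3 peaks, with fold enrichments from 1.31 to 2.4. The first (64253334 to 64253631) covered the first 298 nt of the transcript, all 5′ UTR, and was enriched 2.4 times (log10 p -2.93). The second (64214493 to 64214552) covered 60 nt of exon 2 in the coding sequence and was enriched 1.31 times (log10 p -1.9). It was the weakest of the 11 by both measures, and 6.06% of the peaks of protein-coding genes had a lower fold enrichment. The third (64185800 to 64186067, 268 nt) was centred 751 nt past the stop codon in the last exon and was enriched 1.99 times (log10 p -7.73). Only this one had a p-value under 0.001. Map2k1 has 1 annotated coding isoform, and each of the 3 peaks lay in it.

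Mapk3 (ENSMUSG00000063065, chromosome 7, 126759601 to 126765819, plus strand), which encodes ERK1, held both the highest and one of the lowest fold enrichments. The first peak (126759601 to 126759779) covered the first 179 nt of the transcript, with 45 nt of 5′ UTR and 134 nt of coding sequence, so it contained the start codon. It touched 3 of the 5 annotated coding isoforms and lay whole in 2 of them. The authors labelled it 5′ UTR, whereas its centre lay in the coding sequence. It was enriched 53.1 times (log10 p -11.7), and 96.4% of the peaks of protein-coding genes had a lower fold enrichment. Among those that included the first base of the longest coding transcript, the share was 85.7%. The second peak (126764804 to 126765819) held 654 exonic nt, from the last 42 nt of the coding sequence through the stop codon to the last base of the transcript. It was enriched 1.76 times (log10 p -23.3). The first peak thus had 30.2 times the fold enrichment of the second and was the less significant of the 2.

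**Figure D2:**
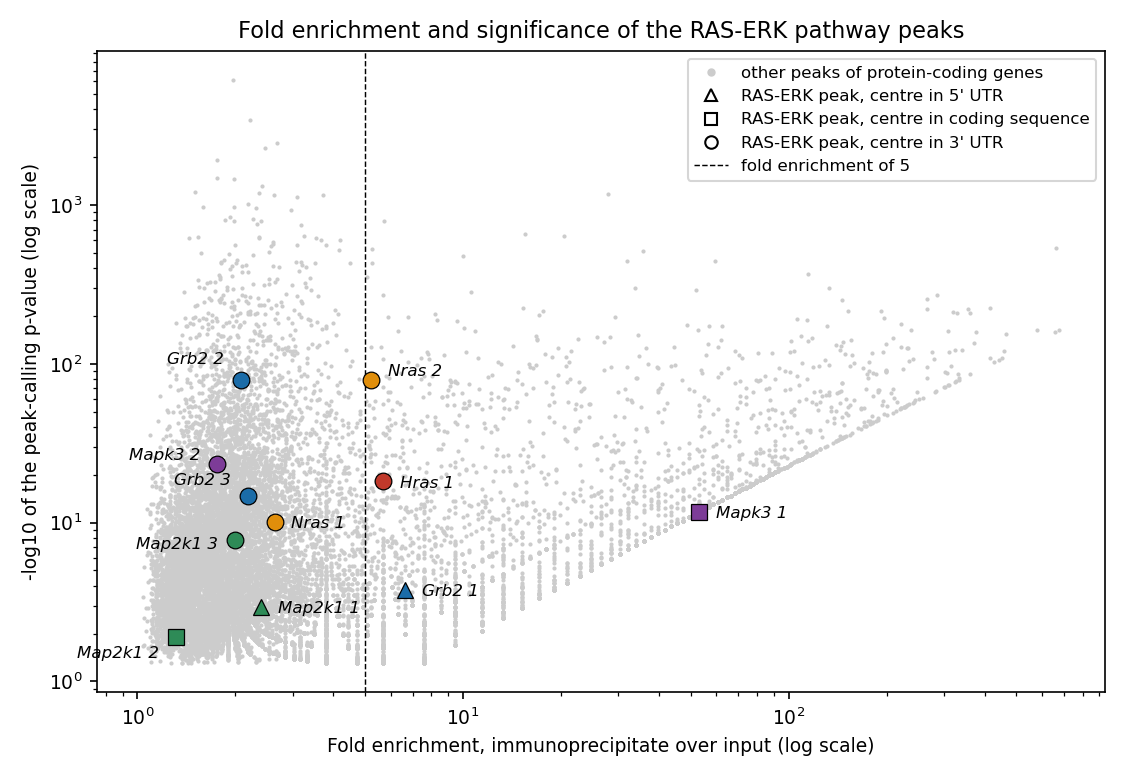
Fold enrichment of a peak on the x axis against -log10 of its peak-calling p-value on the y axis, both on log scales, for the 11 peaks (coloured by gene, numbered from the 5′ end, symbol by the region of the centre) and for the other peaks of protein-coding genes in grey. Nras peak 2 and Grb2 peak 2 are the most significant of the 11 at fold enrichments of 5.22 and 2.08, while Mapk3 peak 1, at 53.1, has a log10 p of -11.7.

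The 4 strong peaks differed in significance for their fold enrichment. Among other peaks of protein-coding genes with a like fold enrichment (at most 25% above the smaller of both), a stronger p-value was listed for 1.66% of those around Nras peak 2, 8.13% around Hras peak 1, 26.3% around Grb2 peak 1 and 62.9% around Mapk3 peak 1. The median log10 p of such peaks was -2.28, -2.28, -2.14 and -13. Fold enrichments in the list fell on a ladder, since 80.3% of values from 5 to 30 were whole multiples of 1.90 to within the rounding of the last listed digit. If that step is taken as input depth over immunoprecipitate depth, 28 reads of the immunoprecipitate and 1 of the input give the fold enrichment of Mapk3 peak 1, and a binomial test of them gives a log10 p of -11.6. For Grb2 peak 1 the nearest whole numbers were 14 and 4 reads (log10 p -3.65). They were 87 and 29 reads for Hras peak 1 (log10 p -18.2) and 421 and 153 reads for Nras peak 2 (log10 p -79.4). These are numbers that would give both listed values within 3%, not reads in the list, and the part of low input reads in the fold enrichment of Mapk3 and Grb2 at the 5′ end was not tested.

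Peaks at the 5′ end and in the 3′ UTR overlapped in fold enrichment. The 3 peaks that began at the first base of a transcript had fold enrichments of 6.64, 2.4 and 53.1 and log10 p-values of -3.75, -2.93 and -11.7. In protein-coding genes 14.9% of peaks placed on the longest coding transcript included the first base, with a median fold enrichment of 11.4, and 70.4% of them were strong. The 7 peaks centred in a 3′ UTR had fold enrichments from 1.76 to 5.69 with a median of 2.18, beside a median of 2.02 in the 8878 such peaks of protein-coding genes, where 18.5% were strong. Their log10 p-values ran from -79.4 to -7.73. The share of placed peaks centred in a 3′ UTR was 56.5% in protein-coding genes, and 66.7% were centred in the last exon, as were 7 of the 11 here. The stop codon was covered by 2 of the 11 peaks, in Grb2 and Mapk3, against 20.3% of placed peaks, and 1 centre lay within 200 nt of it, against 22.3%.

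The DRACH sites of the peaks were counted on the strand of the gene only, and overlapping sites were counted separately. Each of the 11 peaks held at least 1 site, from 1 to 13 in a peak and 59 in all. A site was also found in 90% of placed peaks of protein-coding genes, and in 69.9% to 100% of those of like length to each of the 11, by the same limit of 25%. A site that begins with GGAC was held by 19.7% to 86.5% of peaks of like length. Over the 3636 nt of the longest coding transcripts in peaks there were 16.2 sites per kb. The density was 20.3 in the rest of the same 5 transcripts and 20.2 in placed peaks of protein-coding genes. Of the 328 exonic nt in Grb2 peak 1, only the 204 nt on the longest coding transcript were searched. The 3 peaks at the 5′ end held 1 site each, or 4.9, 3.36 and 5.59 per kb, and the 7 peaks in 3′ UTRs held from 11.2 to 25.1 per kb. In the 5′ UTRs of the 7 transcripts the density was 8.33 per kb in Gab2, 5.78 in Nras, 3.02 in Grb2 and 2.95 in Map2k1, and 0 in Sos1, Hras and Mapk3. These 5′ UTRs have from 45 nt in Mapk3 to 339 nt in Map2k1, so their densities rest on few sites. The 3′ UTR peaks of Grb2, at 19.2 and 17.9 per kb, were denser than its 3′ UTR as a whole, at 14.5. The same held for Hras, at 25.1 against 18.6, and for Mapk3, at 19.9 against 18.0. Both Nras peaks, at 17.9 and 20.8, and that of Map2k1, at 11.2, were below the whole 3′ UTR, at 22.0 and 18.6 per kb. A motif match is a description of the letters and does not mark a modified base.

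**Figure D3:**
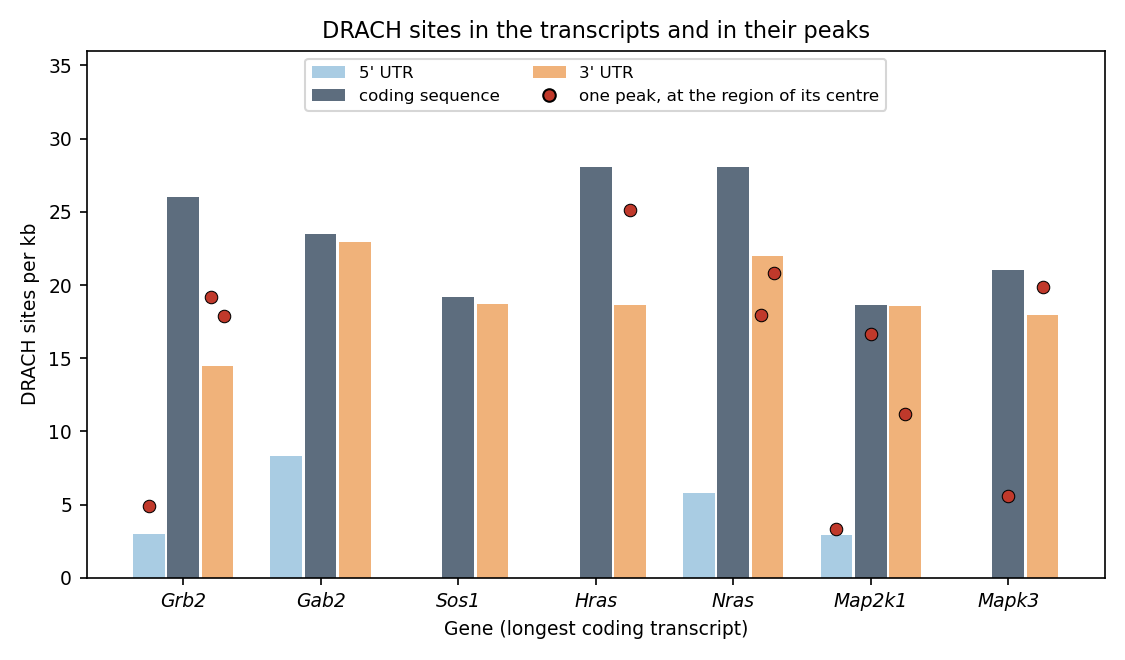
DRACH sites per kb in the 5′ UTR, coding sequence and 3′ UTR of the longest coding transcript of each gene (bars) and in each of the 11 peaks (points, placed over the region of the peak's centre). The 3 peaks at 5′ ends lie between 3.36 and 5.59 per kb and those in 3′ UTRs between 11.2 and 25.1, and Gab2, which has no peak, has the densest 5′ and 3′ UTR of the 7 at 8.33 and 22.9. The 5′ UTRs have 45 to 339 nt, so their bars rest on few sites.

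The other genes of the pathway were described with a list of 56 genes ordered by role. A peak was found in 46 of them (82.1%), against 46.3% of all protein-coding genes, and 13 of these 46 (28.3%) had a strong one, against 43.4% of protein-coding genes with a peak. The 46.3% covers every annotated protein-coding gene, whatever its RNA level or length, and the difference from it was not tested. The 109 peaks of these 46 genes had a median fold enrichment of 2.03, and the highest peak of each gene had a median of 2.71, against 3.79 in protein-coding genes. Nf1 alone held 11 of the 109, and most of these 11 overlapped 0 nt of a coding isoform. They are kept in the values given here. Whether peaks of the other pathway genes share bases with exons of further genes is not reported here. Of 94 peaks placed on the longest coding transcript, 65 were centred in the 3′ UTR. Strong peaks were found in 3 of 5 adaptor and docking genes with a peak, 3 of 6 exchange factors, 2 of 6 RAF kinases and scaffolds, 1 of 4 GTPase activators and 2 of 9 targets. None of the 6 other RAS GTPases and none of the 8 feedback inhibitors with a peak had one.

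Some close relatives of the 7 genes were added after their values were seen. Sos2, the other SOS exchange factor, had 2 peaks in its 3′ UTR with fold enrichments of 1.62 and 2.31 and log10 p-values of -4.85 and -9.72, where Sos1 had 0. Gab1 and Gab3, like Gab2, had none. Map2k2, which encodes MEK2, had 5 peaks with fold enrichments of 1.74 to 2.26 and 23.4. The last of these spanned 4990 nt and held 810 nt of coding isoforms, of which 7 nt lay in the longest coding transcript.

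Of the remaining strong peaks of the other pathway genes, the highest was 56.9 at the exchange factor Rasgrf2 (log10 p -12.6). The next was 26.6 at Ptpn11 (log10 p -5.48), which encodes SHP-2, followed by 22.8 at the kinase Braf and at the scaffold Ksr2 (log10 p -4.61 for each). A peak of Nf1, a GTPase activator that turns RAS off, had 19 (log10 p -3.75). Peaks of 11.4 were found at the exchange factor Rasgrp3 (log10 p -2.09) and at Rps6ka1, an ERK target kinase (log10 p -3.31). No read numbers are given for these peaks, and the part of low input reads in their fold enrichments was not tested. The Rasgrf2 peak spanned 34483 nt and held 691 nt of coding isoforms. That of Rasgrp3 spanned 61161 nt and held 1222 nt, and that of Nf1 spanned 5696 nt and held 391 nt. The Rps6ka1 peak held 118 nt of coding isoforms. Neither it nor the Rasgrf2 peak lay on the longest coding transcript. The peak of 26.6 at Ptpn11 and that of 22.8 at Braf overlapped 0 nt of a coding isoform. The other Ptpn11 peak lay in the 3′ UTR, with a fold enrichment of 1.44 (log10 p -4.08). Braf had another strong peak, of 11.4 (log10 p -7.5), with 270 nt in its 3′ UTR. The 5 most significant peaks of these other pathway genes had fold enrichments from 1.48 to 8.22. At the transcription factor Ets1, an ERK target, the log10 p was -121 and the fold enrichment 6.46, and at Rasgrp2 the values were -42.8 and 8.22, both in the 3′ UTR. At the immediate early gene Fos they were -58 and 1.48, at Ywhaz, a 14-3-3 protein that binds RAF, -48.6 and 2, and at the GTPase Rap1a -41.3 and 3.88. The Rap1a peak spanned 55338 nt and held 241 nt of coding isoforms.

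**Figure D4:**
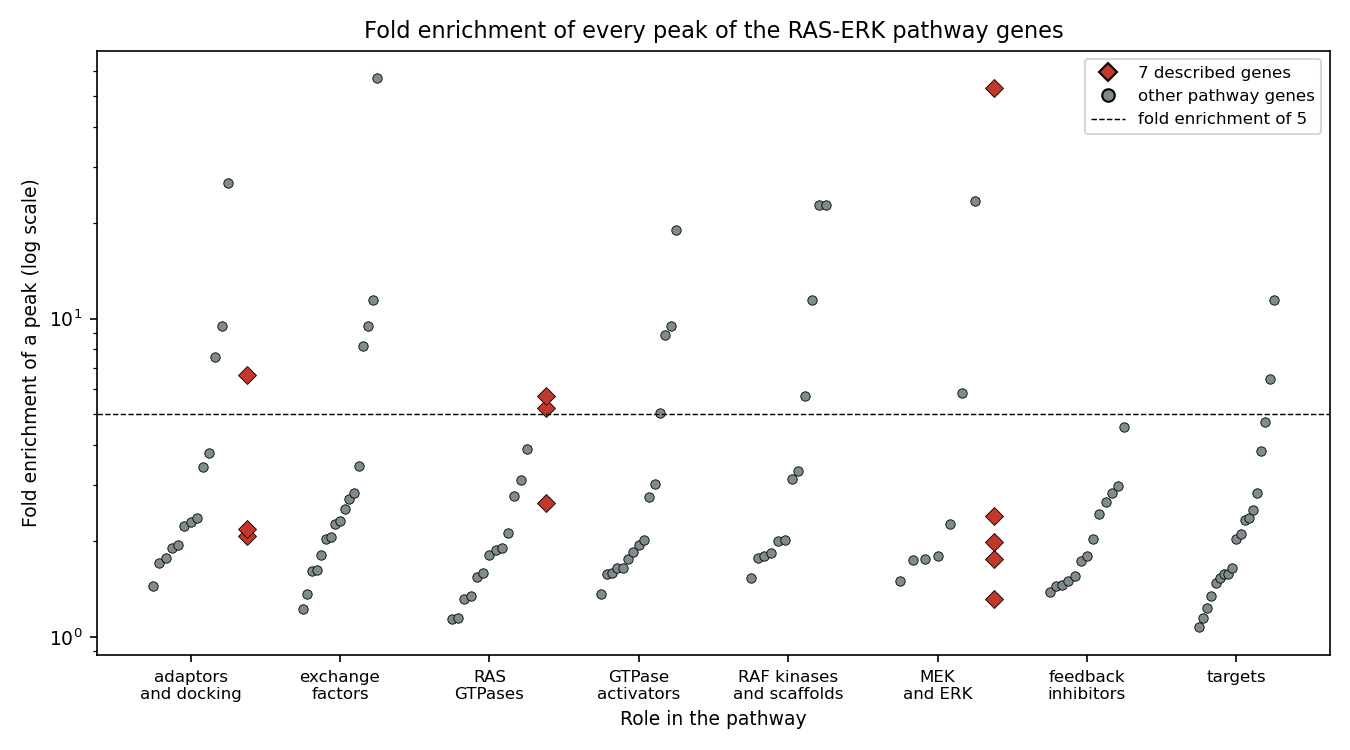
Fold enrichment (log scale) of every peak of the RAS-ERK pathway genes by role, with the 11 peaks of the 7 genes as red diamonds and the 109 peaks of the other pathway genes as grey circles, ordered by value within a role. Mapk3 at 53.1 and Rasgrf2 at 56.9 stand highest, and among the RAS GTPases only peaks of Hras and Nras lie above the dashed line at 5. The part of low input reads in these fold enrichments was not tested.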

How the data were processed

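MeRIP-seq was done on fragmented poly(A) RNA from splenic NK cells, with 2 m6A immunoprecipitates and 2 inputs. The authors trimmed reads, aligned them with HISAT2, called peaks with exomePeak and annotated them with ChIPseeker. The submitters' processing notes name GRCm38. How replicates were combined is not given in the sources used here. The deposited fold enrichment is a ratio of immunoprecipitate to input reads. The deposited significance is a score, read from its name and values as the log10 of the unadjusted peak-calling p-value. Of 20751 rows, 24 repeats were dropped.

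Genes were matched by Ensembl identifier in GENCODE M21 (GRCm38). The centre of a peak's exonic part fixed its region, read on the longest coding isoform. Motifs were counted in GENCODE transcripts with Python, numpy 2.4.6 and pandas 2.3.3, and binomial p-values came from scipy 1.17.1. Placement and motif counts were tested on 1000 simulated transcripts, of which 100% were placed correctly. The background was 21951 protein-coding genes.

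The 7 genes, the pathway list, the markers and the alternatives were chosen with earlier results of these data known. All peaks of the 7 genes are given. Of the other pathway genes, Ptpn11, the 8 with the highest strong peak and the 5 with the most significant peak are named, and some close relatives of the 7 were added later, while others are not reported here. Alternatives changed the fold, significance and overlap thresholds, the transcript, the centre, the stop codon window and the motif. No comparison was tested, since the list has 0 columns with a value per sample.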

Additional observations from a re-analysis of the deposited data

How the results depend on the processing

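Of 30 alternative values for 8 results, 23 stayed within 1.5 times the reported value and 7 did not. Of the 11 peaks 4 were left from a fold of 5 upward, and of the 4 genes with a strong peak 1, Mapk3, from a fold of 10 upward. The median fold enrichment rose from 2.4 to 5.69 with the highest peak of each gene. The number of centres near the stop codon was 0 within 100 nt and 3 within 400 nt, against 1 within 200 nt. The motif density was 3.03 per kb for GGAC, counted whatever base follows. In the other pathway genes, 8 had a peak of at least 10 in place of 13 with one of at least 5. Each of these settings changes what is counted. The 5 genes with a peak and the 7 centres in a 3′ UTR stayed within those limits in every alternative run. No paired analysis was possible because all 4 libraries share 1 value per peak, and leaving out each replicate was not run on that account. What sequencing depth allows for weak or missing peaks is unknown.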
